A study of Mus musculus with 9 samples.

Results

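Genes for ion channels, ion pumps and carbonic anhydrases were compared between sorted mouse tracheal gland cells that overexpress the transcription factor Lef1 and control cells. The genes were chosen by the start of their symbols alone, which took in the potassium, calcium, sodium and chloride channel families, TRP, Piezo and P2X channels, the store-operated calcium entry and release genes, the sodium and calcium pumps with their Fxyd regulators, and the carbonic anhydrases. The rule found 107 of the 13336 genes in the deposited table. Of these, 97 belong to the families named. The other 10 were taken in by their first letters only, namely Tmem160, Tmem161a, Tmem161b, Tmem164, Tmem165, Tmem167, Tmem167b, Tmem168, Trpc4ap and the noncoding RNA Kcnq1ot1, and were set apart after the rows were seen.

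RNA was sequenced from 5 Lef1KI libraries (A to E) and 4 WT libraries (A, B, E and D), each a pool of 3 to 5 mice by the labels. Lef1KI cells came from ACTA2-CreERT2:Lef-1KI+/+ mice and were sorted as GFP-negative. WT cells came from ACTA2-CreERT2:ROSA-TG mice and were sorted as GFP-positive, so that gate and genotype change together in every library and cannot be told apart. Both groups carried the tamoxifen-inducible Cre, driven by the promoter of the smooth muscle actin gene ACTA2, which other contractile cells also use, and both received tamoxifen on 5 days before harvest. All cells were grown to passage 1 in airway medium with Y-27632 at 10 µM, 1 µM DMH-1 (an inhibitor of BMP receptors), 1 µM A83-01 (of TGF-beta receptors) and 1 µM CHIR 99021, a GSK3 inhibitor that activates Wnt signalling in both groups. The sources used here do not give the ages of the mice.

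Ion channels let ions run down their gradients, and pumps spend ATP to build those gradients. Carbonic anhydrases interconvert carbon dioxide with bicarbonate and protons. In airway glands, secretion of chloride and bicarbonate draws water into the gland lumen, while the epithelial sodium channel takes sodium and water back up. Myoepithelial cells wrap the gland and contract when cytosolic calcium rises, and the calcium pumps end that signal.

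Levels are in TPM (transcripts per fixed total of transcripts in the library, corrected for gene length), and differences are Lef1KI minus WT in log2(TPM + 1), a scale on which genes near 0 TPM show less than their true change. Genes with a limma adjusted p (Benjamini-Hochberg over all 13336 genes) under 0.05 are said to have risen or fallen. Lef1 itself, the overexpressed gene, had 210.12, 311.51, 308.8, 139.33 and 166.22 TPM in Lef1KI libraries A to E, against 0.55, 0.46, 0.4 and 0.38 TPM in WT libraries A, B, E and D, a difference of 7.23 ± 0.236 (SE; exact two-sided permutation p = 0.0159, the smallest that 5 against 4 allow). The basal keratin Krt14 was abundant in both groups, at 7217 ± 457 TPM in Lef1KI and 6258 ± 362 TPM in WT cells (SD, n = 5 and 4). The contractile markers were less even. Acta2 averaged 62.3 ± 31.2 TPM in Lef1KI and 128.9 ± 41.0 TPM in WT cells (adjusted p = 0.0834). The smooth muscle myosin Myh11 stayed under 1 TPM on average in both, at 0.742 ± 0.221 and 0.838 ± 0.865 TPM. Of 11 measured myoepithelial markers, with Acta2 and Myh11 among them, 8 had a positive and 3 a negative difference (median 0.2). Their sum was 786.6 ± 244 TPM in Lef1KI and 700.7 ± 150 TPM in WT cells. The table gives no read counts, so the depth is unknown, and errors given here are the spread over libraries.

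Of the 107 genes, 18 rose and 2 fell in Lef1KI cells. The largest rise was that of Atp2b4, a calcium pump of the plasma membrane, followed by the sodium pump regulator Fxyd1, the sodium channel subunit Scn4b, the Clca family member Clca3a1, the potassium channel subunit Kcnf1 and the sodium pump regulator Fxyd5. The 2 that fell were carbonic anhydrases, the cytosolic Car2 and the mitochondrial Car5b. The share called was 18.7%, where 7.97% of all genes were called. In the upward direction it was 16.8%, where 6.73% of all genes rose, and in the downward direction 1.87%, where 1.24% of all genes fell. In bulk RNA, fewer cells of a type and less RNA per cell cannot be told apart.

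Most of the genes that rose were scarce in WT cells. Of the 18, 12 averaged under 1 TPM and 17 under 5 TPM in WT cells. A mean of 5 TPM or more in Lef1KI cells was reached by 4 (Atp2b4, Fxyd1, Fxyd5 and Cacna2d1). The authors' filter asked for a mean of 3 SD or more in 1 of the groups only. A gene scarce and uneven in WT cells could therefore enter the table through Lef1KI cells alone. In 25 of the 107 members 1 group lay under 3 SD. Among the 18, WT cells lay under it in log2(TPM + 1) for Kcnf1, Clca3a1, Atp1b2, Cacna1g, Best1, Cacng7, Kcnt2 and Car11. These genes passed the filter only through the group where they are high, so their calls are not independent of it. All genes of the table passed the same filter, and its part in the share that rose was not tested. Among the 35 members with a mean of 20 TPM or more over all libraries, only Fxyd5 was called (2.86%, against 5.45% of all genes at that level). None of the 11 members at 50 TPM or more was called by limma, and 4 of them had an unadjusted p under 0.05; library weights, the setting that called the most genes, called Clic3 and Scnn1a among them. Of the 30 members between 1 and 5 TPM, 11 were called (36.7%, against 14.4% of all genes there). The summed level of all 107 genes was 2922 ± 63.9 TPM in Lef1KI and 3032 ± 183 TPM in WT cells. Among the abundant members was the intracellular channel protein Clic1, at 287.9 ± 33.5 TPM in Lef1KI and 270.8 ± 24.5 TPM in WT cells.

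**Figure D1:**
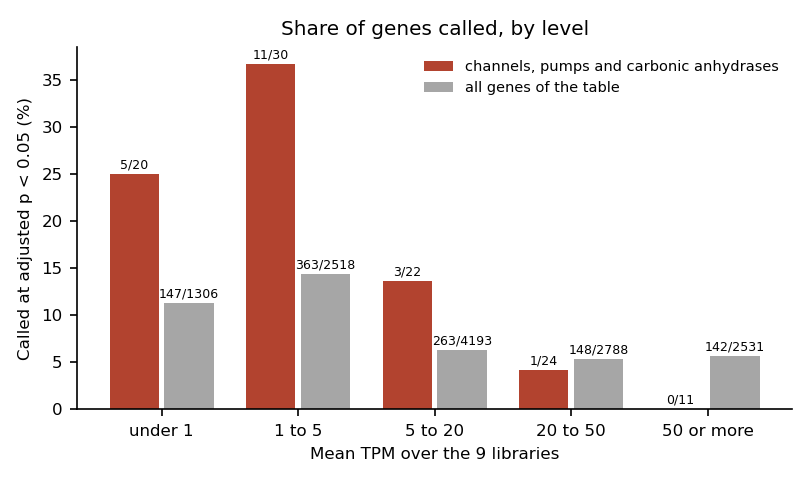
Share of genes called (percent, vertical axis) by mean level over all libraries (TPM classes, horizontal axis), for the channel, pump and carbonic anhydrase genes and for all genes. The members stand above all genes in the classes under 20 TPM (25.0%, 36.7% and 13.6%) and below them from 20 TPM upward (4.17% and 0%).

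The calls were of unequal firmness. When each library was left out in turn (9 fits), 13 of the 18 genes that rose and 1 of the 2 that fell were called every time. Scaling mattered because the median difference over all genes was 0.141 rather than 0: centring each library on its median shifted that median to -0.0181 and left 13 genes higher and 6 lower, and trimmed-mean scaling left 16 higher and 4 lower. All 20 called genes kept their sign under both scalings. The median difference over the 107 genes was 0.124.

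In 25 of the 107 genes (23.4%, where 11.9% of all genes did so) the libraries of the 2 groups did not overlap, 20 with all Lef1KI libraries above and 5 with all below. Those that were not called included the anoctamins Ano3, Ano6 and Ano8 above, and the potassium channels Kcnh1 and Kcnk7 below (adjusted p between 0.0515 and 0.0796).

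**Figure D2:**
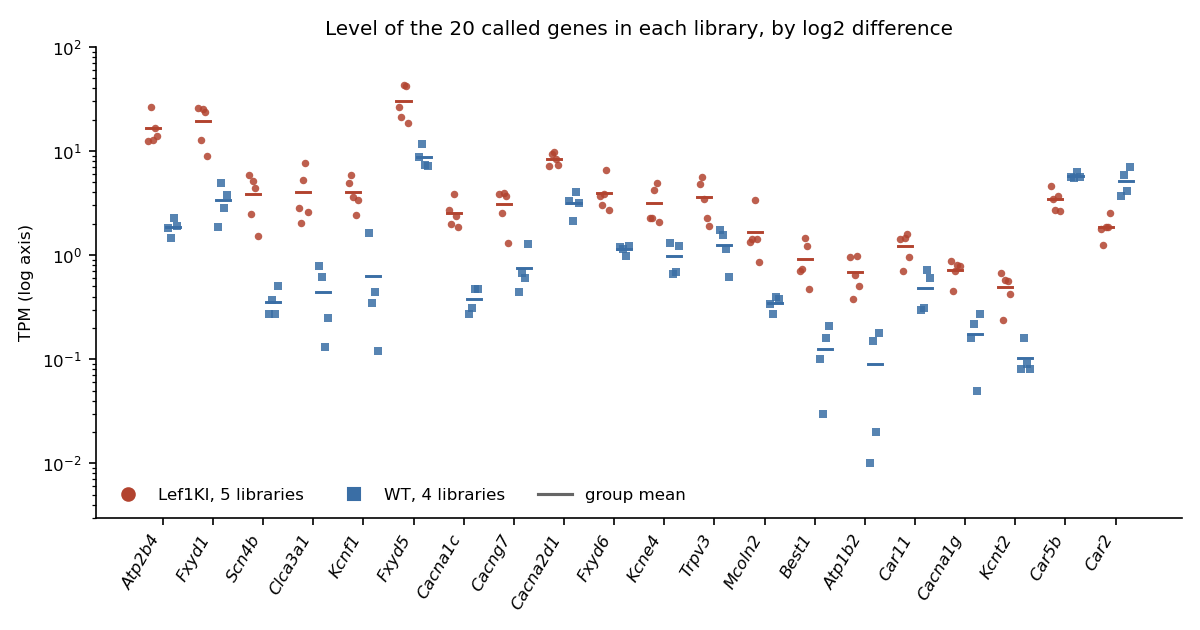
Level of the 20 called genes in each library (TPM, log axis), Lef1KI libraries left of WT libraries for each gene, ordered by log2 difference. Among the 18 that rose, the Lef1KI and WT points of Car11 alone overlap, and Car2 and Car5b lie lower in every Lef1KI library than in any WT library.

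Lef1 and its relatives bind DNA at CTTTGAT or CTTTGAA, so the promoters of the genes that moved were searched for these letters on both strands. The windows run from 250 bases before to 50 bases after the transcription start, from RefSeq on GRCm38.p6, in which 86 of the 107 genes were found, with 108 promoters. Either motif was present in 9 of the 108 (8.33%), against 8.65% of all 32851 promoters in the table. Of 19 promoters of 16 genes that rose, 1 held a match, that of Kcne4, and the promoter of Car5b held none. The Kcne4 window is printed because it holds that match, and those of Atp2b4, Fxyd1 and Scn4b because these genes had the 3 largest rises. They lie at chr1:78816661-78816960 (+) for Kcne4, chr1:133753698-133753997 (-) for Atp2b4, chr7:31054804-31055103 (-) for Fxyd1 and chr9:45138374-45138673 (+) for Scn4b. Each is written 5′ to 3′ on the gene's strand in lower case, and capitals mark CTTTGAT, whose first base is 239 bases before the start of Kcne4. All 4 RefSeq starts lie inside the longer gene spans of GENCODE.
Kcne4: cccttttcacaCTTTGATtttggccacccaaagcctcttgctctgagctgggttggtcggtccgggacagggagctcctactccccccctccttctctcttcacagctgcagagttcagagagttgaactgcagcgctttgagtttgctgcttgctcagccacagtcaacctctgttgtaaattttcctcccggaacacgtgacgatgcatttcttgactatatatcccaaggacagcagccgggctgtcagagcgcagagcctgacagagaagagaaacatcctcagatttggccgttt
Atp2b4: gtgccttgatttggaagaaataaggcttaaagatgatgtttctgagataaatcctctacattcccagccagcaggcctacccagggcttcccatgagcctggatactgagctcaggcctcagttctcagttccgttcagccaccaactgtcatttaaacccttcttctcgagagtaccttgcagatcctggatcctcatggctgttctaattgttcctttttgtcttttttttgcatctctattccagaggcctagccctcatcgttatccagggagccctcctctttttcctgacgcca
Fxyd1: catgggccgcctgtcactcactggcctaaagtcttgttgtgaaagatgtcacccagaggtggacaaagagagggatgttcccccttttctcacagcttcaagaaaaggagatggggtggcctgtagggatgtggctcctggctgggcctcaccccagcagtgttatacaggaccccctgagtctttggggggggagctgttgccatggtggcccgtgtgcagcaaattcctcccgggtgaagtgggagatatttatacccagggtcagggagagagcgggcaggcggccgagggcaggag
Scn4b: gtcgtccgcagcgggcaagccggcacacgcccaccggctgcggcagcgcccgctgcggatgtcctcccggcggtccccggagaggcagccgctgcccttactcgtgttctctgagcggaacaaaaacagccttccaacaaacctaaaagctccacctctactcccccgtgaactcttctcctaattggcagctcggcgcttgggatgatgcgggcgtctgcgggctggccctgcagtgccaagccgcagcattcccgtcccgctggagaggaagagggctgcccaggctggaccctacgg
The share of member promoters with a match differed from that of all promoters by less than 1 percentage point. The Scn4b window was the richest in G and C of the 4, at 66.3% with 26 CpG pairs, and that of Atp2b4 the poorest, at 47.7% with 4, where the median over all promoters was 52.7% with 7. A match describes letters and not binding, and no match says only that these letters are not in the window.

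Calcium pumps carry calcium out of the cytosol, across the plasma membrane (Atp2b genes), into the endoplasmic reticulum (Atp2a genes) or into the Golgi (Atp2c genes). Of the 7 measured, 1 rose and none fell (limma, adjusted p under 0.05; 2 had an unadjusted p under 0.05). Atp2b4 (chromosome 1, 133699457 to 133801041, minus strand, mm10) had 12.44, 26.66, 12.88, 16.75 and 13.85 TPM in Lef1KI libraries A to E, against 1.83, 1.45, 2.29 and 1.91 TPM in WT libraries A, B, E and D. Every Lef1KI library lay more than 5 times above the highest WT library, with B the highest. The difference was 2.56 ± 0.222 (SE, adjusted p = 0.000157), and it stayed between 2.38 and 2.64 whichever library was left out. Atp2b1, the more abundant pump of the same membrane, averaged 27.3 ± 4.63 TPM in Lef1KI and 20.6 ± 5.68 TPM in WT cells (adjusted p = 0.228). Atp2b4 therefore made up 37.2 ± 8.95% of the TPM of Atp2b1 and Atp2b4 in Lef1KI and 8.60 ± 2.08% in WT cells, and the sum of both was 43.9 ± 6.64 TPM in Lef1KI and 22.5 ± 5.91 TPM in WT cells. The pumps of the endoplasmic reticulum, led by Atp2a2, summed to 175.7 ± 5.47 TPM in Lef1KI and 163.0 ± 18.4 TPM in WT cells. Of the Golgi pumps, Atp2c2 averaged 2.45 ± 1.28 TPM in Lef1KI and 4.97 ± 1.85 TPM in WT cells (adjusted p = 0.141).

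**Figure D3:**
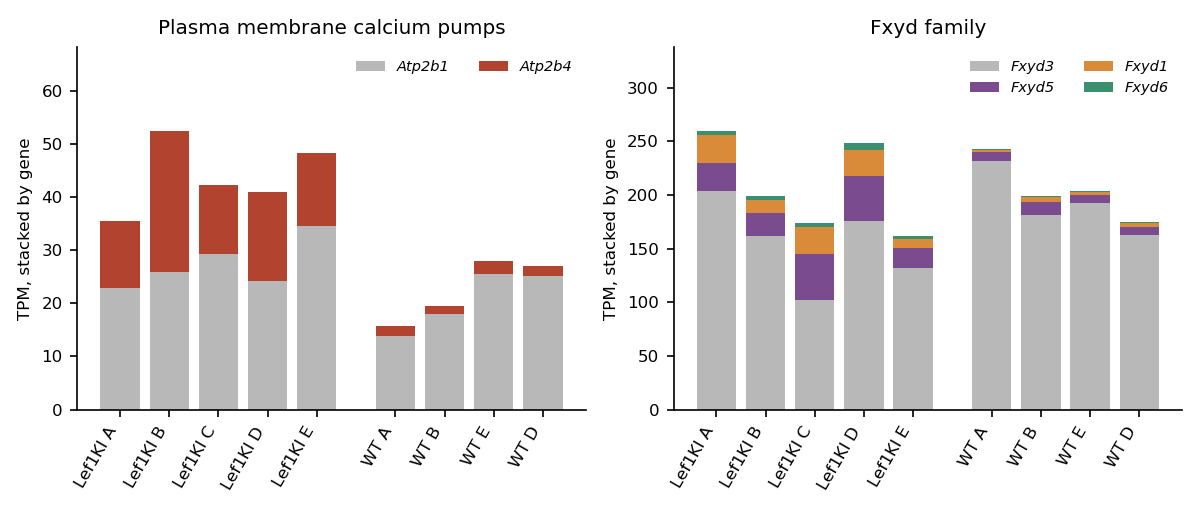
Summed level (TPM, bars from 0) of the plasma membrane calcium pumps and of the Fxyd family in each library, Lef1KI A to E left of WT A, B, E and D, stacked by gene. The Atp2b4 layer takes 28.7% to 50.8% of each Lef1KI bar and 7.07% to 11.6% of each WT bar, and Fxyd3 takes 58.6% to 81.5% in Lef1KI and 91.1% to 95.1% in WT libraries.

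Voltage-gated calcium channels admit calcium on depolarization through a pore-forming alpha-1 subunit with accessory subunits. Of the 7 measured genes, 4 rose and none fell (limma; 4 had an unadjusted p under 0.05), and their summed level was 33.3 ± 4.96 TPM in Lef1KI and 19.8 ± 1.44 TPM in WT cells. Cacna1c, the pore of the L-type channel of smooth muscle and heart, had 2.73, 1.97, 3.86, 2.39 and 1.86 TPM in Lef1KI libraries A to E, against 0.27, 0.31, 0.47 and 0.47 TPM in WT libraries A, B, E and D. Its difference was 1.34 ± 0.158 (SE, adjusted p = 0.000911). The accessory subunit Cacna2d1, which brings channels to the cell surface, had 7.21, 9.31, 9.7, 8.34 and 7.31 TPM in the Lef1KI libraries and 3.33, 2.11, 4.07 and 3.2 TPM in WT libraries, in the same order. It was the only gene of the 4 that was above 1 TPM in every WT library, and its difference was 1.18 ± 0.175 (SE, adjusted p = 0.00277). The gamma subunit Cacng7 rose by 1.19 ± 0.238 (adjusted p = 0.0118), with 3.09 ± 1.15 TPM in Lef1KI and 0.752 ± 0.372 TPM in WT cells. The T-type pore Cacna1g averaged 0.724 ± 0.165 TPM in Lef1KI and 0.175 ± 0.0947 TPM in WT cells (difference 0.55, adjusted p = 0.00735), and lost its call under median centring (0.39, adjusted p = 0.0597). The beta subunit Cacnb3, the most abundant of the group, averaged 17.1 ± 2.93 TPM in Lef1KI and 13.8 ± 1.3 TPM in WT cells (adjusted p = 0.317). Cacna1c overlaps Dcp1b on the opposite strand, and the sources used here do not say whether the authors' counting used strand.

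The sodium pump exchanges sodium for potassium through a catalytic alpha subunit and a beta subunit, and small Fxyd proteins tune it. Of the 8 genes measured, 4 rose and none fell (limma; 5 had an unadjusted p under 0.05). The 4 were Fxyd1, Fxyd5, Fxyd6 and the beta subunit Atp1b2. Fxyd1 (phospholemman), an inhibitor of the pump that phosphorylation relieves, had 25.96, 12.69, 25.6, 23.65 and 9.01 TPM in Lef1KI libraries A to E, against 1.88, 4.91, 2.84 and 3.82 TPM in WT libraries A, B, E and D, a difference of 2.17 ± 0.333 (SE, adjusted p = 0.00316). Fxyd5 (dysadherin), also known as a modulator of cell adhesion, had 26.54, 21.07, 42.75, 42.41 and 18.48 TPM in the Lef1KI libraries and 8.84, 11.72, 7.32 and 7.14 TPM in WT libraries, a difference of 1.62 ± 0.268 (SE, adjusted p = 0.00448). In both genes Lef1KI A, C and D were the high libraries, and the groups did not overlap. Fxyd6 averaged 3.98 ± 1.54 TPM in Lef1KI and 1.14 ± 0.104 TPM in WT cells (difference 1.17, adjusted p = 0.0047). Atp1b2, best known from glia, stayed under 1 TPM in every library, with 0.694 ± 0.268 TPM in Lef1KI and 0.09 ± 0.0876 TPM in WT cells (adjusted p = 0.0106), and lost its call under median centring (adjusted p = 0.0613).

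Fxyd3, the main Fxyd gene here, averaged 154.9 ± 39.3 TPM in Lef1KI and 192.0 ± 28.8 TPM in WT cells (adjusted p = 0.305). The Fxyd sum was close in the groups, at 208.5 ± 43.7 TPM in Lef1KI and 205.3 ± 28.2 TPM in WT cells, while the part taken by Fxyd3 was 74.1 ± 9.72% in Lef1KI and 93.4 ± 1.79% in WT cells.

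Of the voltage-gated and calcium-activated or sodium-activated potassium channels, 2 of 8 rose and none fell (limma; 4 had an unadjusted p under 0.05). Kcnf1, a subunit that forms no channel alone and modifies its partners, had 4.9, 5.93, 3.58, 2.41 and 3.35 TPM in Lef1KI libraries A to E, against 1.63, 0.35, 0.44 and 0.12 TPM in WT libraries A, B, E and D. Its difference was 1.66 ± 0.268 (SE, adjusted p = 0.00398), and WT A was the WT library nearest to the Lef1KI range. The sodium-activated channel Kcnt2 averaged 0.496 ± 0.169 TPM in Lef1KI and 0.102 ± 0.0386 TPM in WT cells (difference 0.43, adjusted p = 0.0199); it lost its call without WT E, without WT D and under median centring (0.27, adjusted p = 0.185). Among accessory subunits, Kcne4, which suppresses several potassium channels, had 2.26, 2.29, 4.24, 4.95 and 2.06 TPM in the Lef1KI libraries and 1.31, 0.66, 0.69 and 1.23 TPM in WT libraries, a difference of 1.04 ± 0.226 (adjusted p = 0.0177) that was not called without WT B or without WT E. Kcne4 overlaps the noncoding RNA Gm29536 on the opposite strand.

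Other potassium channels stood lower without passing. Kcnh1, a voltage-gated channel, had 1.72, 3.39, 0.8, 3.75 and 0.54 TPM in Lef1KI libraries A to E, against 4.44, 5.59, 4.27 and 5.59 TPM in WT libraries A, B, E and D. The groups did not overlap, but the Lef1KI libraries spread over several fold, and the difference was -1.11 ± 0.325 (adjusted p = 0.0631; -1.27 and 0.0474 under median centring). Of the 8 inward rectifier and K2P (leak) channels none was called by limma, and 2 had an unadjusted p under 0.05; Kcnk7 was called lower under both scalings and Kcnk5 with library weights. Kcnk7 averaged 2.25 ± 0.453 TPM in Lef1KI and 3.65 ± 0.505 TPM in WT cells (adjusted p = 0.0592). The abundant leak channel Kcnk1 averaged 53.1 ± 5.88 TPM in Lef1KI and 57.0 ± 10.3 TPM in WT cells (adjusted p = 0.703). Kcnj15, an inward rectifier, averaged 64.2 ± 29.2 TPM in Lef1KI and 41.0 ± 10.1 TPM in WT cells (adjusted p = 0.271).

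Among the 4 sodium channel genes, 1 rose. Scn4b, a beta subunit of voltage-gated sodium channels, had 5.88, 2.49, 5.16, 4.42 and 1.51 TPM in Lef1KI libraries A to E, against 0.27, 0.37, 0.27 and 0.51 TPM in WT libraries A, B, E and D, a difference of 1.76 ± 0.27 (SE, adjusted p = 0.00316). No pore-forming voltage-gated sodium channel gene is among the 107. Scnn1a, the alpha subunit of the epithelial sodium channel, had 38.7, 17.84, 5.86, 27.23 and 22.59 TPM in Lef1KI libraries A to E, against 16.44, 102.34, 78.5 and 167.38 TPM in WT libraries A, B, E and D. WT A fell inside the Lef1KI range and the other WT libraries lay above all Lef1KI libraries. The difference was -1.79 ± 0.641 (adjusted p = 0.123) with all libraries and -2.46 ± 0.498 (adjusted p = 0.018) without WT A.

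WT A stood apart from the other WT libraries for several more members. It had the lowest median log2 value of all libraries (3.58, against 3.71 to 3.84 in the other WT libraries), and was the lowest WT library for 48 of the 87 members with a mean of at least 1 TPM (55.2%) and for 45.3% of all 12030 genes at that level. Without it, Clic3 (-2.02, adjusted p = 0.0408), Clic5 (-1.48, adjusted p = 0.00797), Kcnk5 (-1.28, adjusted p = 0.0229) and Trpm6 (-0.46, adjusted p = 0.0159) were also called lower, while Car5b (adjusted p = 0.0562), Car11 (adjusted p = 0.0912) and Trpv3 (adjusted p = 0.053) were no longer called. Clic5 and Trpm6 were named after their values were seen. Clic3 had 53.68, 19.64, 8.13, 21.74 and 39.54 TPM in the Lef1KI libraries and 25.86, 91.45, 75.59 and 142.46 TPM in WT libraries. Atp1b1, the beta subunit of epithelia, averaged 26.2 ± 7.36 TPM in Lef1KI cells, against 7.12 TPM in WT A and 65.4, 32.17 and 97.11 TPM in WT B, E and D. Without WT A its difference was -1.19 (adjusted p = 0.0662). WT A lay below all Lef1KI libraries for Atp1b1, and WT E lay among them. The mechanically and osmotically gated channel Trpv4 had 10.78 to 26.51 TPM in the Lef1KI libraries, against 12 TPM in WT A and 28.78 to 34.29 TPM in the other WT libraries (-0.88, adjusted p = 0.0959 without WT A). A list of 19 squamous differentiation genes summed to between 5010 and 7975 TPM in the Lef1KI libraries, to 4976 TPM in WT A and to 8625, 9668 and 14062 TPM in WT B, E and D. The part of squamous differentiation in these differences was not tested.

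**Figure D4:**
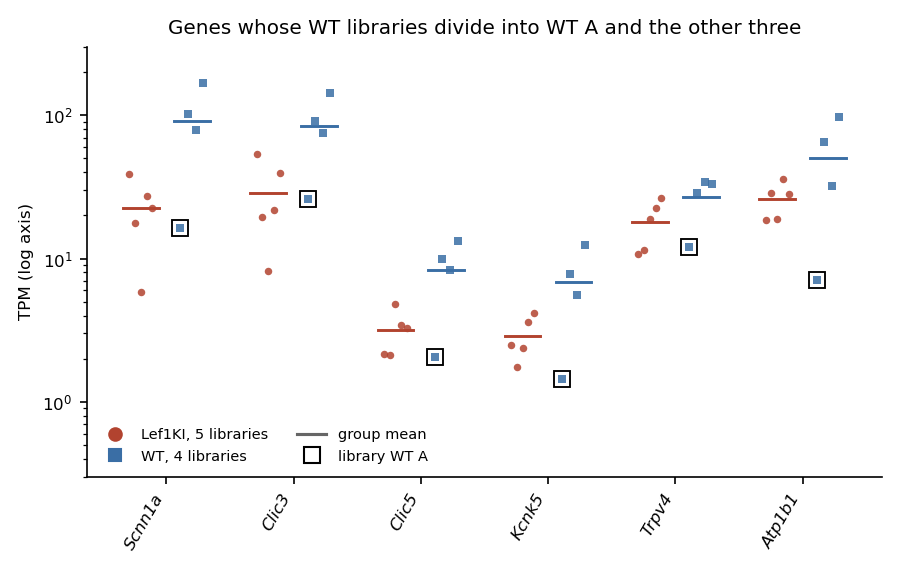
Level (TPM, log axis) of genes whose WT A library stood apart, Lef1KI libraries left of WT libraries, with WT A boxed and lines at the group means. For Scnn1a the WT A value of 16.44 TPM lies within the Lef1KI range and the other WT values lie at 78.5 TPM or more.

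Anion channels and volume-regulated channels made up the largest family, with 22 genes, of which 1 rose and none fell (limma; 9 had an unadjusted p under 0.05). Best1, a calcium-activated chloride channel, had 0.7, 0.74, 1.46, 1.22 and 0.47 TPM in Lef1KI libraries A to E, against 0.1, 0.03, 0.16 and 0.21 TPM in WT libraries A, B, E and D, a difference of 0.75 ± 0.147 (adjusted p = 0.0107) at low level. Ano1, the calcium-activated chloride channel of secretory epithelia, averaged 11.8 ± 8.34 TPM in Lef1KI and 11.3 ± 4.2 TPM in WT cells (adjusted p = 0.949). Its Lef1KI libraries ranged from 6.69 to 26.56 TPM, with E alone above 10. Ano6, a calcium-activated lipid scramblase and channel, had 28.88, 35.28, 56.83, 31.71 and 48.17 TPM in the Lef1KI libraries and 26.62, 25.56, 25.68 and 22.38 TPM in WT libraries, with no overlap and a difference of 0.62 ± 0.193 (adjusted p = 0.0796). Clic4 averaged 179.0 ± 49.5 TPM in Lef1KI and 126.6 ± 7.08 TPM in WT cells (adjusted p = 0.156). Lrrc8a, the obligatory subunit of the volume-regulated anion channel, averaged 47.6 ± 17.9 TPM in Lef1KI and 39.9 ± 15.5 TPM in WT cells, 37.9 ± 7.91% and 32.3 ± 7.91% of the Lrrc8 total. Lrrc8b, a partner subunit, averaged 12.3 ± 3.23 TPM in Lef1KI and 19.3 ± 3.92 TPM in WT cells (adjusted p = 0.0974).

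Clca proteins regulate calcium-activated chloride channels and are not channels themselves. Clca3a1 had 2.84, 2.02, 5.32, 7.62 and 2.61 TPM in Lef1KI libraries A to E, against 0.78, 0.62, 0.13 and 0.25 TPM in WT libraries A, B, E and D, a difference of 1.72 ± 0.295 (SE, adjusted p = 0.00526). The far more abundant Clca2, known from keratinocytes and other stratified epithelia, averaged 36.7 ± 15.2 TPM in Lef1KI and 46.7 ± 9.59 TPM in WT cells (adjusted p = 0.365). Clca3a1 has a close paralogue next to it, Clca3a2, and an antisense transcript, Gm34866, so its reads may have been shared with either.

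Of 15 TRP, mucolipin, Piezo and P2X channels, 2 rose and none fell (limma; 5 had an unadjusted p under 0.05). Mcoln2, a cation channel of endosomes and lysosomes, had 1.34, 1.43, 3.37, 1.42 and 0.85 TPM in Lef1KI libraries A to E, against 0.34, 0.27, 0.4 and 0.38 TPM in WT libraries A, B, E and D (difference 0.93, adjusted p = 0.0191), and was not called without WT B or without WT E. Trpv3, a warmth-gated channel of keratinocytes, had 4.86, 5.65, 3.48, 2.25 and 1.89 TPM in the Lef1KI libraries and 1.74, 1.55, 1.15 and 0.61 TPM in WT libraries (difference 0.99, adjusted p = 0.0462). The lowest Lef1KI value lay just above the highest WT value, and the call held in 2 of 9 fits with a library left out and under neither scaling. The abundant channels of the group, mechanosensitive Piezo1 and ATP-gated P2rx4, averaged 37.5 ± 8.0 and 37.6 ± 14.9 TPM in Lef1KI cells, against 34.3 ± 13.1 and 35.0 ± 11 TPM in WT cells (adjusted p = 0.685 and 0.891).

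Store-operated calcium entry refills the calcium store through the sensors Stim1 and Stim2 and the Orai pores, after the IP3 receptors (Itpr genes) have emptied it. None of these 8 genes was called by limma under any alternative run, and none had an unadjusted p under 0.05. Stim1, the most abundant, averaged 114.2 ± 54.6 TPM in Lef1KI and 118.3 ± 30.8 TPM in WT cells, and Orai1 averaged 8.24 ± 1.27 TPM in Lef1KI and 8.2 ± 1.95 TPM in WT cells. The spread in Stim1 was wide, at 59.31 to 199.39 TPM over Lef1KI and 86.21 to 154.96 TPM over WT libraries. The summed level of the 8 was 209.0 ± 44.1 TPM in Lef1KI and 207.8 ± 34.4 TPM in WT cells.

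Among 6 carbonic anhydrase genes, 1 rose and 2 fell. Car2, the fast cytosolic enzyme, had 1.78, 1.25, 1.86, 1.88 and 2.54 TPM in Lef1KI libraries A to E, against 3.74, 5.93, 4.12 and 7.06 TPM in WT libraries A, B, E and D. The groups did not overlap, the difference was -1.10 ± 0.193 (SE, adjusted p = 0.00606), and it was called whichever library was left out. Car5b (on the X chromosome), the mitochondrial enzyme, had 4.66, 3.47, 2.69, 3.66 and 2.66 TPM in the Lef1KI libraries and 5.64, 5.53, 6.28 and 5.66 TPM in WT libraries, a difference of -0.63 ± 0.161 (adjusted p = 0.0372) that held in 1 of 9 fits with a library left out, that without Lef1KI A. Car11, a related protein without enzyme activity, averaged 1.23 ± 0.385 TPM in Lef1KI and 0.482 ± 0.211 TPM in WT cells (difference 0.58, adjusted p = 0.0399), and was called in 2 of 9 such fits and under neither scaling. The enzymes with the highest levels were the cytosolic Car13, at 42.1 ± 4.09 TPM in Lef1KI and 42.3 ± 9.73 TPM in WT cells, and the membrane-bound Car12, at 38.3 ± 7.9 TPM in Lef1KI and 53.6 ± 7.42 TPM in WT cells (adjusted p = 0.0993; called lower under both scalings, with an adjusted p of 0.048 under median centring). Car2 made up 4.32 ± 1.38% of the Car2 and Car13 total in Lef1KI and 11.4 ± 4.21% in WT cells. The hypoxia-induced Car9 averaged 2.38 ± 1.47 TPM in Lef1KI and 3.29 ± 1.24 TPM in WT cells (adjusted p = 0.431).

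**Figure D5:**
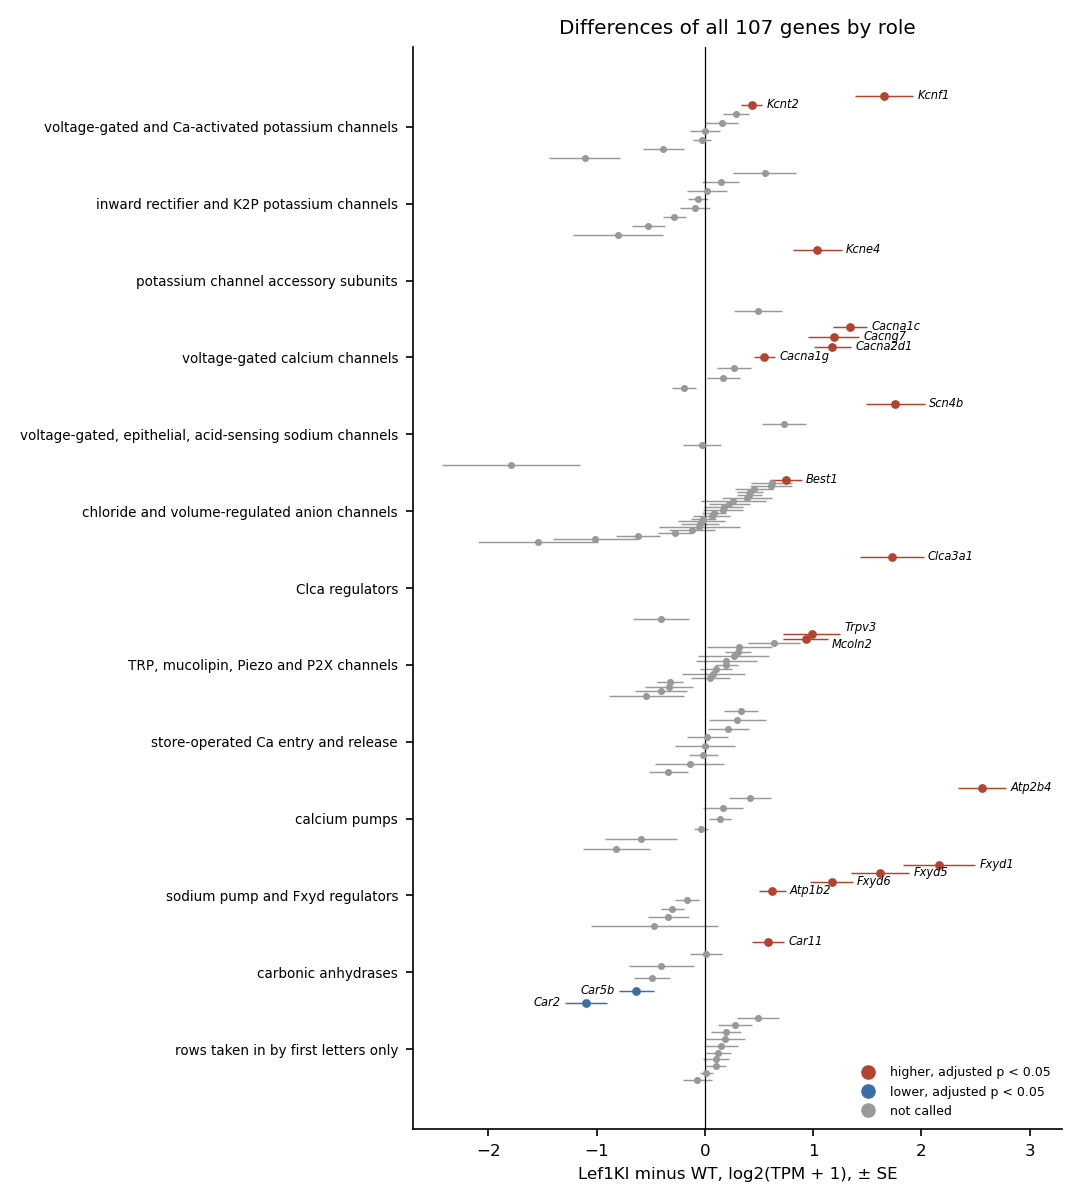
Log2 difference (Lef1KI minus WT, horizontal axis; bars are the SE) of each of the 107 genes, grouped by role down the page. Red points rose and blue points fell at an adjusted p under 0.05; the 4 called calcium channel genes and the 4 called sodium pump genes lie to the right, and the 2 blue points are Car2 and Car5b.

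Some of these genes are neighbours in the genome (mm10, GENCODE positions). On chromosome 7, Fxyd5 and Fxyd1 lie 9.2 kb apart and both rose, while Fxyd3, 11 kb beyond Fxyd1 on the same strand, was not called (-0.34). Further along, the protease gene Hpn fell (-1.31, adjusted p = 0.0229), with 1.75 ± 0.56 TPM in Lef1KI and 6.27 ± 3.17 TPM in WT cells. On chromosome 9, Scn4b and Fxyd6 both rose and lie 216 kb apart, and of the genes between them Tmprss4 (-0.95, adjusted p = 0.065) and Tmprss13 (-0.58, adjusted p = 0.304) were measured and not called. On chromosome 3, Clca3a1 rose and Clca2, 309 kb away, was not called (-0.41), and likewise Car2 fell while Car13, 223 kb away, had a difference of 0.01. Hpn, Tmprss4 and Tmprss13 were named after their values were seen.

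Markers of other cell types moved with the groups. Of 16 fibroblast markers, all of which were measured, 14 rose, with a median difference of 2.06, and their sum was 1624 to 4463 TPM in Lef1KI and 406 to 1108 TPM in WT libraries. The matrix protein gene Dcn averaged 305.2 ± 133 TPM in Lef1KI and 44.0 ± 14.9 TPM in WT cells. Of 10 measured endothelial markers (of 13 listed) 7 rose, and their sum was 46.9 to 134 TPM in Lef1KI and 21.9 to 33.3 TPM in WT libraries, with Pecam1 at 4.72 ± 2.83 TPM in Lef1KI and 0.48 ± 0.189 TPM in WT cells. Within the Lef1KI group the fibroblast sum was higher in C, A and D (4463, 3978 and 3556 TPM) than in B and E (2087 and 1624 TPM). Of the 18 members that rose, 10 had A, C and D above B and E as well (55.6%), namely Atp1b2, Cacna1c, Cacng7, Car11, Clca3a1, Fxyd1, Fxyd5, Fxyd6, Kcnt2 and Scn4b. That placing was found in 43.8% of all genes that rose, in 13.8% of members that were not called and in 10.4% of all genes. Atp2b4, Kcnf1 and Trpv3 were highest in Lef1KI B. The endothelial sum had another order, with 134.2 TPM in D, 117.1 in C, 91.7 in E, 47.8 in B and 46.9 in A. The part of fibroblast or endothelial RNA in these results was not tested.

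Lists of other cell types and states gave smaller counts, over the genes that the filtered table holds. None of the measured 5 mural, 5 Schwann cell and 2 neuronal markers, of 10 listed in each case, was called by limma (3, 2 and 0 had an unadjusted p under 0.05). Of 4 measured leukocyte markers (of 11 listed) Lyz2 (1.95) and Coro1a (0.45) rose. Cd68, the most abundant of the 4, averaged 93.7 ± 82.1 TPM in Lef1KI and 179.6 ± 60.9 TPM in WT cells (-1.18, limma adjusted p = 0.1355). The leukocyte sum was 58.3 to 244 TPM in Lef1KI and 111 to 259 TPM in WT libraries. None of the 4 measured ionocyte markers (of 11 listed) was called (2 had an unadjusted p under 0.05; median difference 0.71). Among 3 measured of 9 listed ciliated and 3 measured of 11 listed serous and mucous cell markers, Cfap126 (-0.75) and Pigr (-0.63) fell and Lpo (0.69) rose. Of 19 measured of 22 listed squamous genes, Klk7 fell (-2.46) and Dsc1 rose (0.63), and the list's median was -0.59. Of 19 rows for 17 basal markers, 1 row of Dst (0.76) and that of Cdh3 (0.48) rose and Ngfr (-1.07) fell. The other Dst rows were not called. The most abundant of them averaged 118.0 ± 12.6 TPM in Lef1KI and 101.4 ± 10.1 TPM in WT cells (0.22, limma adjusted p = 0.274). Of 11 measured of 14 listed myoepithelial markers Mylk rose (0.70) and Synm fell (-1.17). None of 3 measured of 10 listed skeletal and cardiac muscle markers (1 with an unadjusted p under 0.05) and none of 13 measured of 14 listed hypoxia genes (3 with an unadjusted p under 0.05) was called.

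Other genes of ion transport were counted from lists too, against the 7.97% of all genes called. Of 31 measured of 53 listed other channels and aquaporins, 4 (12.9%) rose and none fell (limma; 9 had an unadjusted p under 0.05), the largest being the water channel Aqp1, with 88.2 ± 18.3 TPM in Lef1KI and 19.4 ± 9.25 TPM in WT cells (2.22 ± 0.284, adjusted p = 0.00131). The proton channel Hvcn1 (1.22) and the calcium-permeable channel Pkd2 (1.05) rose as well. Of 23 measured of 40 listed cotransporters and exchangers, 2 (8.7%) rose: the sodium-calcium exchanger Slc8a1, with 2.55 ± 0.421 TPM in Lef1KI and 1.13 ± 0.358 TPM in WT cells (0.74, adjusted p = 0.0109), and the sodium-proton exchanger Slc9a9 (0.57). Of 24 measured of 30 listed regulators, 1 (4.17%) was called: Ank2, an anchor of pumps and exchangers at the membrane, rose (1.25 ± 0.196, adjusted p = 0.00347). None of 18 measured of 24 listed subunits of the vacuolar proton pump was called by limma (3 had an unadjusted p under 0.05; median difference -0.11), and their sum was 2157 ± 131 TPM in Lef1KI and 2334 ± 187 TPM in WT cells.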

How the data were processed

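Stranded mRNA libraries of 5 Lef1KI and 4 WT cell pools were compared. RSEM and mm10 are named in the submitters' processing notes; the sources used here do not give versions or counting settings. The deposited values are log2(TPM + 1). The values show that the authors filtered genes, with a mean of 3 SD or more in 1 of the groups (lowest 3.002); 25 of the 107 members lay under 3 SD in the other group. Column letters do not match the labels' replicate numbers, so columns were assigned by group name only. No 2 libraries shared more than 71 equal nonzero values.

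The comparison used limma-trend (limma 3.58.1, R 4.3.3) on all 13336 genes and 9 libraries, two-sided, and checked on simulated data. The p-values set each difference between the groups against the spread between libraries. That spread holds differences between pools of mice, cultures and library preparations together. The members, roles and lists were chosen with earlier results of these data known. The text names called genes, the 3 most abundant and the most changed uncalled gene of each role, and a set list of transport genes. Ano3, Ano6, Ano8, Clic5, Kcnk7, Lrrc8b, Trpm6 and the genes neighbouring members were named after their values were seen. So were the marker genes Krt14, Acta2, Myh11, Dcn, Pecam1 and Cd68. Some members are counted but not reported by name here. Positions are from GENCODE M21. Alternatives were other scalings, pseudocounts, filters, priors, library weights and leaving out each library. Median log2 per library was 3.58 to 3.97, and 11465 to 12135 genes reached 1 TPM.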

Additional observations from a re-analysis of the deposited data

Results flagged for a closer look

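Among 110 pairs of a named gene and a group, 8 held a library whose gap to its nearest neighbour was large for the group's range; chance alone gives such a library in about 1 in 20 groups. Lef1KI E stood apart for Ano1, at 26.56 TPM against 6.69 to 9.66 TPM in the other Lef1KI libraries. The same library was high for Itpr3, at 23.57 TPM against 16.43 to 17.06 TPM, and low for Cacnb3, at 12.18 TPM against 17.67 to 20.11 TPM. Atp1b3, a beta subunit of the sodium pump, was low in Lef1KI A, at 74.34 TPM against 93.29 to 100.31 TPM in the other Lef1KI libraries. In WT cells it was high in WT D, at 113.62 TPM against 99.18 to 100.34 TPM. WT A was low for Trpv4, at 12 TPM against 28.78 to 34.29 TPM in the other WT libraries, and for Orai1, at 5.29 TPM against 8.82 to 9.4 TPM. Kcnt2 had 0.16 TPM in WT B against 0.08 to 0.09 TPM in the other WT libraries, a gap of a few hundredths of a TPM in a gene near 0.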

How the results depend on the processing

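All 20 called genes kept their sign under every alternative in which they were tested. The count of all genes called was 1063; it was 2334 with library weights and 628 to 1686 with a library left out (643 without WT B, 628 without WT E, 1686 without Lef1KI A). The 18 genes higher became 11 when an absolute log2 difference of 1 or more was also asked, and 13 to 20 with a library left out. The 2 lower became 6 under median centring, 4 under trimmed-mean scaling, 12 with library weights, 1 with that minimum difference, and 1 to 6 with a library left out (6 without WT A, 4 without Lef1KI A, 1 without Lef1KI C, Lef1KI E, WT B, WT E or WT D). Library weights called 35 of the 107 genes and gave WT A the lowest weight (0.402). The cause of these shifts was not tested.

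Some genes that were not called changed sign. With median centring the differences were -0.0214 for Atp2a2, -0.15 for Car13, -0.0751 for Clic1, -0.14 for Orai1 and -0.0825 for P2rx4; with trimmed-mean scaling they were -0.12 for Car13, -0.0484 for Clic1, -0.0935 for Orai1 and -0.0522 for P2rx4. With library weights they were -0.0187 for Lrrc8a, -0.14 for Orai1, -0.0396 for P2rx4 and -0.16 for Piezo1. With a library left out, the differences spanned -0.37 to 0.10 for Ano1, -1.19 to 0.0114 for Atp1b1, -0.0586 to 0.16 for Car13, -0.11 to 0.0179 for Itpr3, -0.16 to 0.0225 for Kcnk1, -0.15 to 0.11 for Orai1, -0.13 to 0.22 for P2rx4, -0.12 to 0.38 for Piezo1 and -0.37 to 0.0612 for Stim1.

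No paired analysis was possible because the columns carry letters that nothing ties to the labels' replicate numbers. The count models (edgeR and DESeq2) were not run, since TPM values are not counts. TPM keeps no depth, so differences in genes under 1 TPM cannot be set against counting error.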
